A study of Mus musculus with 2 samples.

Results

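The cells described here are islet cells in which transcripts of the insulin genes Ins1 and Ins2 made up at least 25% and less than 60% of the transcripts counted. They were chosen from 2 droplet-based single-cell RNA-Seq libraries, 1 of WT and 1 of GKO (ghrelin-knockout) islet cells. A cell is a droplet barcode with at least 500 genes and at most 10% of its unique molecular identifiers (UMIs, 1 per captured transcript) from mitochondrially encoded genes. Cells in which Gcg, Sst or Ppy, which encode glucagon, somatostatin and pancreatic polypeptide, reached 5% of UMIs were left out. The rule found 758 WT cells and 321 GKO cells, together 1079 of the 13446 cells kept and of the 15081 barcodes in all. Each is called a mid-insulin β cell below. The β cells with insulin at 60% of UMIs or more and the same limit on other hormones, 1269 in WT and 447 in GKO, are called high-insulin β cells. Both names stand for ranges of a measured share and not for cell types, and the insulin share itself is how the cells were selected and not a result.

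Each library came from the pooled islets of 4 male mice at 8 weeks of age on the C57BL/6N strain, fed standard chow. WT mice were wild-type at the ghrelin gene, and GKO mice were littermates in which that gene is knocked out in all tissues. The islets were picked by hand and dispersed, and live single cells were sorted by FACS before capture. A genotype is thus represented by 1 pool, 1 dissociation, 1 sort and 1 library, so genotype and library cannot be told apart. There was no replicate of either genotype, no test was made between them, and the 95% intervals given with ratios (exact, for the ratio of 2 Poisson counts) and with shares (Clopper-Pearson) cover counting error only.

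β cells are the insulin-secreting cells of the islet. Their preproinsulin enters the endoplasmic reticulum (ER) through the translocon, loses its signal peptide, and is folded there by chaperones and disulfide isomerases before the prohormone convertases cut it to insulin in the secretory granule. Insulin mRNA is the most abundant transcript of the cell, and β cells are known to differ among themselves in hormone content, secretory load and markers of maturity.

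The WT library held 158067110 UMIs in 7792 barcodes, of which 356 had too few genes and 596 too large a mitochondrial share. The GKO library held 103511757 UMIs in 7289 barcodes, of which 494 and 882 failed these limits. Before the limit on other hormones the insulin range held 942 WT and 388 GKO cells, and that limit removed 184 and 67 of them. There were 18 barcode sequences that occurred in both libraries, 0 of them among the mid-insulin β cells. Mid-insulin β cells made up 10.7% of the WT cells kept (9.97 to 11.4) and 5.06% of the GKO cells (4.53 to 5.63). Among all β cells with at least 25% insulin their share was 37.4% in WT (35.3 to 39.5) and 41.8% in GKO (38.3 to 45.4). The denominators give opposite orders of the genotypes, and the part of the sort in these shares was not tested.

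As a check of the label, β cell markers other than insulin were measured. G6pc2 (ENSMUSG00000005232), the islet glucose-6-phosphatase subunit that opposes glucokinase, had at least 1 UMI in 94.2% of WT and 92.5% of GKO mid-insulin β cells. Slc2a2 (ENSMUSG00000027690), the glucose transporter GLUT2, had one in 88.4% and 87.9%, and Ucn3 (ENSMUSG00000044988), a peptide of mature β cells, in 74.8% and 72.9%. In endothelial cells, which lack these transcripts and show the level of free RNA, the G6pc2 share was 6.27% in WT and 3.38% in GKO at median depths of 7175 and 7467.5 UMIs, against 29759.5 and 28534 UMIs in mid-insulin β cells. All of the 3 markers were found in 541 WT cells (71.4%) and 218 GKO cells (67.9%), and none of them in 17 and 10 cells. Summed over cells and given as counts per 1000000 non-insulin UMIs (CPM, the scale of every level below), the 3 markers together stood at 1723 CPM in WT and 1532 CPM in GKO, against 22.9 and 20.5 CPM in cells rich in glucagon (Gcg at 10% of UMIs or more, insulin under 5%). These levels do not go against the label, but transcripts of other cell types were found beside them, as described next.

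As a check of the genotype labels, Ghrl, the ghrelin gene, had 93 UMIs in 87 of the WT mid-insulin β cells (11.5%), or 7.52 CPM. The 321 GKO cells had 0, which allows a share of cells with a UMI of up to 0.935% and a level of up to 0.617 CPM (3 counts over the group), so the WT level was at least 12.2-fold higher. WT endothelial cells had 4.74 CPM and a share of 4.24%, so part of the WT signal is at the level of free RNA.

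Many mid-insulin β cells carried the transcript of a further islet hormone. Gcg, Sst or Ppy reached 0.5% of UMIs in 259 of 758 WT cells (34.2%, 30.8 to 37.7) and in 84 of 321 GKO cells (26.2%, 21.4 to 31.3). In high-insulin β cells the same held for 25 WT cells (1.97%) and 3 GKO cells (0.671%). By hormone, Ppy was past this level in 24.8% of WT and 14.6% of GKO cells, Sst in 21.8% and 19.3%, and Gcg in 5.94% and 3.74%. At least 2 of the 3 hormones were past it in 123 WT cells (16.2%) and 35 GKO cells (10.9%). A lower insulin share leaves more room for other transcripts in the total, so these shares of cells are a description of the range and were not tested. Over non-insulin UMIs, Sst stood at 18345 CPM in WT and 16196 CPM in GKO, against 1922 and 831 CPM in high-insulin β cells. On the same scale Gcg stood at 6533 and 5748 CPM against 1648 and 1592 CPM, and Ppy at 10616 and 6739 CPM against 2326 and 1924 CPM.

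The cells with another hormone were deeper. Their median was 19938 non-insulin UMIs in WT and 20962 in GKO, against 12423 and 12030 in mid-insulin β cells with none of the 3 hormones past 0.5%. Their medians of genes detected were 4820 in WT and, without another hormone, 3835. No doublet caller was run, and cells caught in pairs and single cells with several hormones cannot be told apart by these values.

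**Figure D1:**
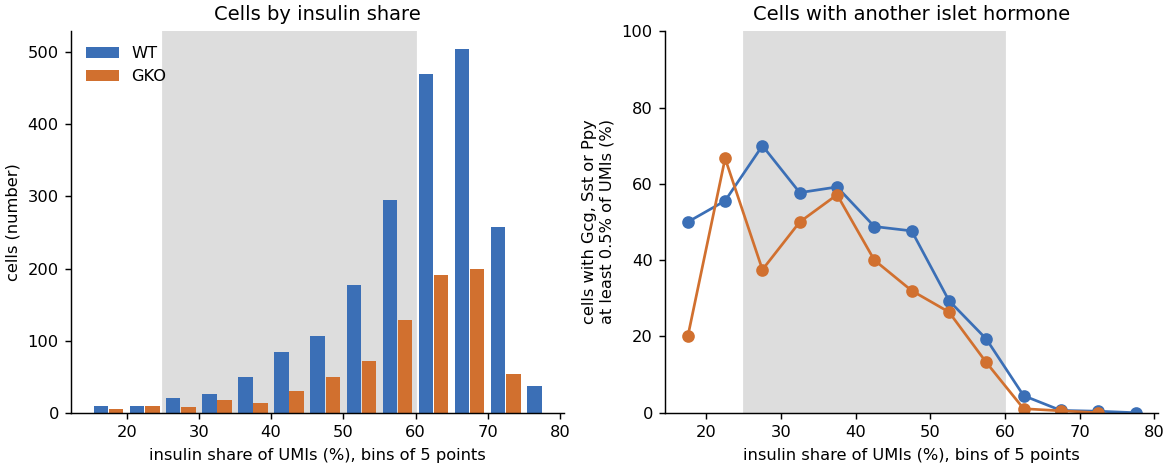
Left, number of cells (vertical axis) by share of UMIs from Ins1 and Ins2 (horizontal axis, in bins of 5 percentage points from 15%, bins under 5 cells not drawn), WT and GKO as bars, with the 25 to 60% range in grey. Right, percent of the cells of each bin in which Gcg, Sst or Ppy made up at least 0.5% of UMIs, which was 70.0% in WT at 25 to 30%, 19.3% at 55 to 60% and 0.595% at 65 to 70%.

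The share of cells with another hormone was lower with each step towards higher insulin from 35% on. In WT it was 59.2% of the 49 cells at 35 to 40%, 48.8% of 84 at 40 to 45%, 47.7% of 107 at 45 to 50%, 29.4% of 177 at 50 to 55% and 19.3% of 295 at 55 to 60%. In GKO the same bins gave 57.1%, 40.0%, 32.0%, 26.4% and 13.2%. The range had no gap at its upper limit. Just inside it, at 59 to 60%, were 65 WT and 22 GKO cells with medians of 18081 and 19311.5 insulin UMIs. Just outside it, at 60 to 61%, were 63 and 32 cells with 18930 and 20059.5. At the lower limit there was 1 WT cell at 24 to 25% and 1 GKO cell at 25 to 26%, so few cells lie near that limit.

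Transcripts of most non-endocrine cell types were concentrated in few of the cells, and those of acinar cells and lymphocytes less so. The 10% of cells with the most acinar marker UMIs held 60.4% of them in WT and 45.6% in GKO. For lymphocyte markers these shares were 63.9% and 65.6%. At least 1 of the 10 non-endocrine marker lists reached 0.2% of non-insulin UMIs in 93 WT cells (12.3%) and 28 GKO cells (8.72%), and 1% in 20 and 13 cells. The 7 endothelial markers summed to 264 CPM in WT and 82.9 CPM in GKO (highest Plvap in WT, 87.1 CPM, and Esam in GKO, 17.7 CPM), and the 10% of WT cells with the most of them held 91.1% of these UMIs. The 7 macrophage markers summed to 346 and 616 CPM (highest C1qa, 182 and 249 CPM). C1qa also stood at 215 and 222 CPM in high-insulin β cells, against 92.6 and 83.0 CPM in glucagon-rich cells. The 7 markers of activated stellate cells summed to 216 and 306 CPM (highest Dcn, 71.8 and 135 CPM), those of mural cells to 63.2 and 164 CPM (highest Rgs5), and the 8 acinar markers to 623 and 283 CPM (highest Ctrb1, 207 and 68.7 CPM). The libraries thus differed in the levels of these marker lists, and this difference was not tested.

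The remaining lists were smaller or uneven. Lymphocyte markers summed to 95.5 and 112 CPM, nearly all of it Cd79a at 87.0 and 109 CPM. They remained at 126 and 140 CPM in the marker-poor cells defined below. Cd79a stood at 52.5 and 34.8 CPM in high-insulin β cells, against 2.21 and 4.22 CPM in glucagon-rich cells. Cd79a and C1qa were thus higher in both β cell ranges than in glucagon-rich cells, and which cells made them was not tested. Both count in the non-endocrine lists above. Ductal markers stood at 98.3 and 20.1 CPM, most of it Spp1. Globin transcripts gave 361 CPM in WT, led by Hbb-bs, and 0.411 CPM in GKO, with 100% of the WT UMIs in the 10% of cells with the most. Schwann cell markers gave 8.17 and 22.2 CPM with the defining Sox10 at 0 in both, and neutrophil markers 2.02 and 0.617 CPM with Retnlg at 0 in both.

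Such transcripts move with many results below, so values are also given for marker-poor cells. These are the 435 WT and 211 GKO mid-insulin β cells with Gcg, Sst and Ppy each under 0.5% of UMIs and no non-endocrine list at 0.2% of non-insulin UMIs, set against the 1193 and 440 high-insulin β cells that meet the same limits. In them Gcg stood at 849 CPM in WT and 1109 CPM in GKO, Sst at 579 and 427 CPM and Ppy at 1739 and 1689 CPM. As a share of all UMIs of a cell, the medians in WT were 0.0379% for Gcg, 0.0253% for Sst and 0.0726% for Ppy, against 0.0379%, 0.0242% and 0.0736% in endothelial cells. In GKO they were 0.0515%, 0.0181% and 0.0687%, against 0.0510%, 0.0158% and 0.0589%. Single endothelial barcodes reached 8.48% Gcg and 9.56% Sst in WT, so medians and not sums are compared here. Endothelial marker sums were 32.3 and 30.1 CPM in marker-poor cells, macrophage sums 132 and 139 CPM, and stellate sums 15.5 and 27.5 CPM.

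The mid-insulin β cells were not shallow cells. They had a median of 29759.5 UMIs in WT (lowest 1245, highest 146205) and 28534 UMIs in GKO, with medians of 4087 and 4020 genes. High-insulin β cells had 40196 and 41149 UMIs but about as many non-insulin UMIs, 13065 and 13497 against 13999 and 13342 in the mid-insulin range. Insulin UMIs, whose share chose the cells, had medians of 15553 in WT and 14965 in GKO mid-insulin β cells and 26881 and 26981 in high-insulin β cells. The median mitochondrial share was 3.45% in WT and 3.64% in GKO, against 2.52% and 2.74% in high-insulin β cells, a share that also depends on the insulin UMIs in its total.

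**Figure D2:**
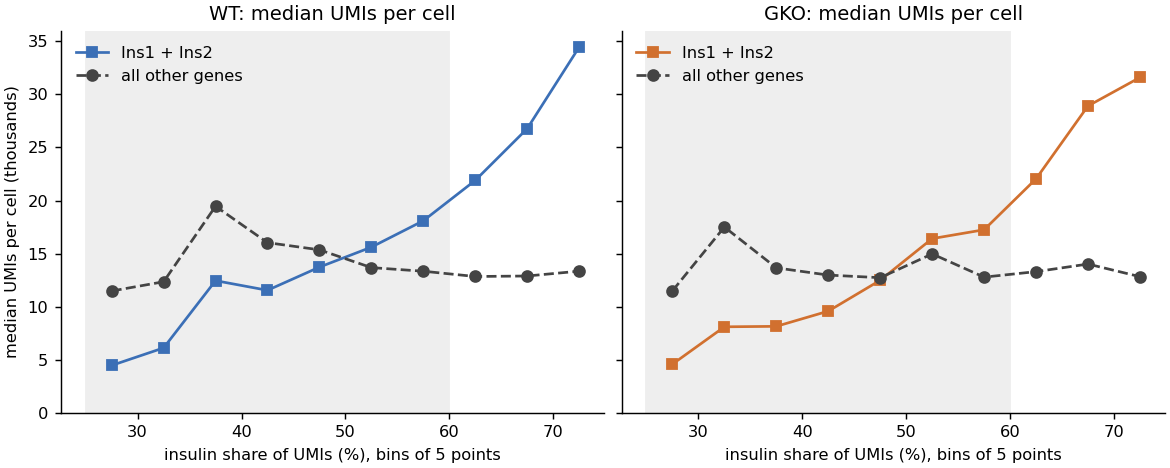
Median insulin UMIs and median non-insulin UMIs per cell (vertical axis, UMIs) by insulin share (horizontal axis, percent of UMIs, bins of 5 percentage points from 25% to 75%), with WT and GKO in separate panels. From 50 to 75% the WT median of non-insulin UMIs stayed between 12839 and 13677, while that of insulin UMIs went from 15605 to 34452.

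The balance of the insulin genes is given as a description, since the UMIs of both chose the cells. Mice have 2 insulin genes, of which Ins2 is the ancestral and Ins1 a retrotransposed copy. Ins1 made up 25.2% of insulin UMIs in mid-insulin β cells of both libraries (WT 25.20 to 25.25, GKO 25.12 to 25.19). In high-insulin β cells it made up 29.4% in WT and 28.8% in GKO. Marker-poor mid-insulin β cells had 24.9% and 23.9%. The few insulin UMIs of glucagon-rich cells, which made up 0.614% and 0.469% of their UMIs, had 27.0% and 26.2% Ins1. The near-identical sequences of Ins1 and Ins2 make the split between them uncertain.

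Beyond insulin, the expression of mid-insulin β cells was set against that of high-insulin β cells within each library. Since the insulin share chose both sets, these ratios are a description with no test. Past a log2 ratio of −0.5 in both libraries were 9 of 16 genes of ER folding, 5 of 13 of ER translocation and 2 of 6 of prohormone processing, and past 0.5 were Cd81, Tspan8, Mt1, Txnip, 10 of 10 immediate early genes and 5 of 11 heat shock chaperones. Among 3057 genes with a mean of at least 50 CPM over the ranges in each library, 85 (2.78%) were higher by at least 0.5 on the log2 scale in both libraries and 116 (3.79%) were lower by as much in both. The sign was the same in both libraries for 2547 genes, and the median log2 ratio over all genes was −0.05 in WT and −0.04 in GKO, with 40.7% and 43.8% of genes above 0. In marker-poor cells, with no limit on their level there, 47 of the 85 and 71 of the 116 genes were still past 0.5 in both libraries.

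The scale decides part of this split. With CPM over all UMIs, insulin included, only 1152 genes reached 50 CPM, against 3057 above. Over these 1152 genes the median log2 ratio was 0.49 in WT and 0.44 in GKO, and 437 were higher and 4 lower. That scale raises every ratio of a library by one constant amount, so genes less than that amount below 0 turn positive on it. The amount is over 0.5, as Ptprn in WT went from −0.56 to 0.013. With TMM factors the median moves to −0.15 and −0.14, and 67 genes were higher and 196 lower. The ratios below are on the non-insulin scale with no median subtracted. They are to be read beside the medians on that scale, −0.05 in WT and −0.04 in GKO.

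**Figure D3:**
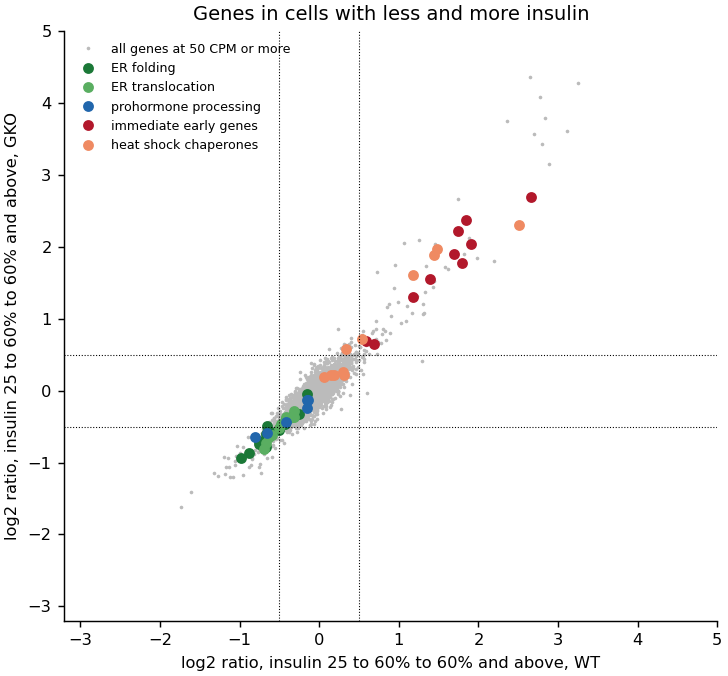
Log2 ratio of CPM in mid-insulin over high-insulin β cells for 3057 genes, WT on the horizontal and GKO on the vertical axis, 1 point a gene, with the gene lists coloured and dotted lines at ±0.5. ER folding and ER translocation genes lie below 0 in both libraries, and immediate early genes lie above 0.5 in both.

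ER folding genes were lower in mid-insulin β cells throughout the list. All 16 measured members lay below 0 in both libraries and 9 of them below −0.5 in both, with medians of −0.63 in WT and −0.56 in GKO. Summed over the list, the level reached 10423 CPM in the WT cells and 12322 CPM in the GKO cells, against 15117 and 17857 CPM in high-insulin β cells. Ero1lb, the β cell form of the oxidase that supplies disulfide bonds, stood at 967 CPM in WT and 1037 CPM in GKO against 1904 and 1987 CPM (log2 ratio −0.98, −1.01 to −0.95, and −0.94, −0.99 to −0.89). Sdf2l1 (ENSMUSG00000022769), a cofactor of the ER chaperone cycle, stood at 327 and 462 CPM against 604 and 841 CPM (−0.88, −0.94 to −0.83, and −0.86, −0.94 to −0.79). Pdia6, a disulfide isomerase, stood at 811 and 985 CPM against 1366 and 1642 CPM (−0.75 and −0.74). The main Hsp70 chaperone of the ER, Hspa5 (ENSMUSG00000026864), stood at 1457 and 1714 CPM against 1740 and 2142 CPM (−0.26 and −0.32).

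In marker-poor cells the ER folding medians were −0.47 in WT and −0.48 in GKO. With CPM over all UMIs they were −0.06 and −0.05, still under the medians of all genes on that scale, and several members turned positive, among them Hspa5 (0.32 in WT and 0.20 in GKO), Hsp90b1 (0.27 and 0.18), Pdia3 (0.22 and 0.15) and, in WT, Dnajc3 (0.06). Along the insulin share the summed level increased in WT from 7504 CPM at 25 to 30% to 9819 CPM at 45 to 50%, 12110 CPM at 55 to 60% and 15492 CPM at 65 to 70%. In GKO it was 7841, 10615, 13966 and 18878 CPM in the same bins. Between 55 to 60% and 60 to 65% it increased from 12110 to 14314 CPM in WT and from 13966 to 16632 CPM in GKO, which was the largest increase between neighbouring bins from 25 to 75% in each library. It fell between some others, as in GKO from 11664 CPM at 40 to 45% to 10615 CPM at 45 to 50%.

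**Figure D4:**
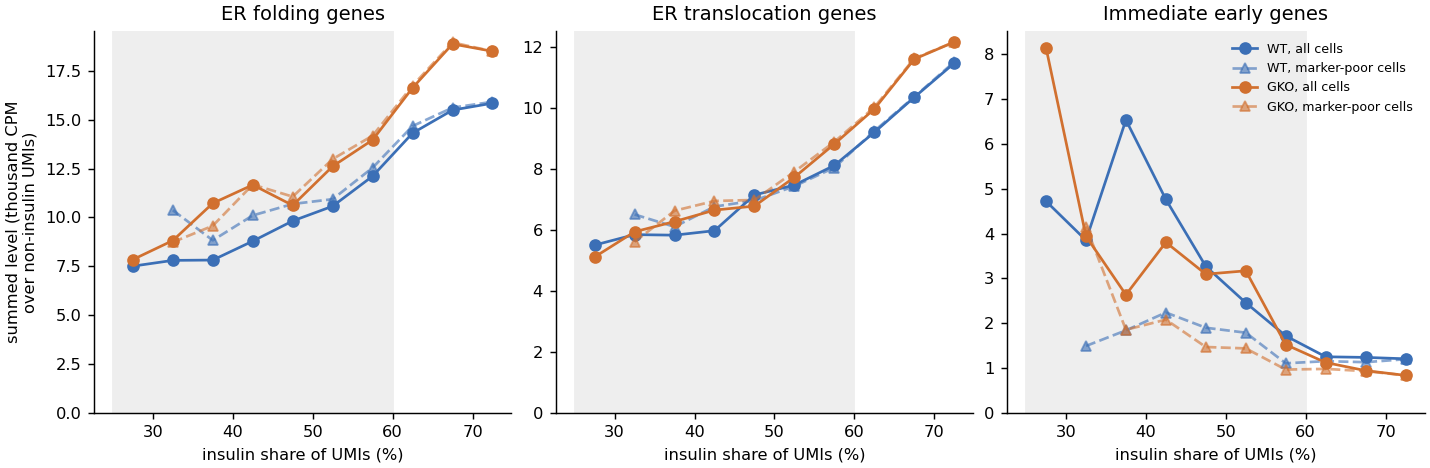
Summed level of the ER folding, ER translocation and immediate early genes (vertical axes, CPM over non-insulin UMIs, in units of 1000) by insulin share (horizontal axis, percent, bins of 5 percentage points from 25 to 75%), for all β cells and for marker-poor cells of WT and GKO. The ER folding sum is higher at 60 to 65% than in any lower bin, in all cells and in marker-poor cells, with falls between some neighbouring bins (in marker-poor WT cells from 10368 CPM at 30 to 35% to 8825 CPM at 35 to 40%), while the immediate early sum in WT is 6534 CPM at 35 to 40% in all cells and 1838 CPM in marker-poor cells.

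Several ER folding genes share a run of letters upstream of their start. The ER stress element, which the transcription factor ATF6 binds together with NF-Y, was searched as the letters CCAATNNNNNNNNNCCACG on both strands. The search covered RefSeq promoter windows of GRCm38, the build the files use under the name mm10. A window holds the 250 bases before a start and the 50 bases after it. Windows were matched for 15 of the 18 listed ER folding symbols. A match was held by 8 of the 15 (53.3%), against 39 of all 32851 windows (0.119%). The letters and the gene list were both chosen for their known tie to ER stress, so these shares are a description and not a test. The match was found in Calr, Canx, Creld2, Dnajc3, Ero1lb (Ero1b in RefSeq), Hsp90b1, Hspa5 and Pdia6. No window of the ER translocation genes (0 of 9) or of the regulators of the unfolded protein response (0 of 12) held these letters, nor did those of prohormone processing (0 of 6) or granule genes (0 of 12). Shown are 4 of these 8 upstream runs as examples of the match on either strand, 5′ to 3′ on the strand of the gene with the matched letters in capitals. Hspa5 lies at chr2:34771840-34772089 (plus strand), with its match 65 to 47 bases before the start. Calr, which encodes the lectin chaperone calreticulin, lies at chr8:84846932-84847181 (minus strand), with the match at 162 to 144 bases on the opposite strand. Pdia6 lies at chr12:17266339-17266588 (plus strand), with the match at 98 to 80 bases. Creld2, which encodes an ER protein of the disulfide isomerase type, lies at chr15:88819396-88819645 (plus strand), with the match at 126 to 108 bases on the opposite strand.
Hspa5: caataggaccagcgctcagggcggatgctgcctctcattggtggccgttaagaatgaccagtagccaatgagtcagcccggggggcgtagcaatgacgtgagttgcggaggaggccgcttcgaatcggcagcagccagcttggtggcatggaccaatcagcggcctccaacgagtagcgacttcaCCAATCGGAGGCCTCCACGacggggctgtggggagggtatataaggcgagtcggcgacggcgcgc
Calr: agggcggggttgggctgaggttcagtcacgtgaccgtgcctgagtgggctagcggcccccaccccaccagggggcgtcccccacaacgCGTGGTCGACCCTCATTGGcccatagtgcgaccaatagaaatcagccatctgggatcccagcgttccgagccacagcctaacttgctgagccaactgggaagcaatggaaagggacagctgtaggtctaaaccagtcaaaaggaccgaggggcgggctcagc
Pdia6: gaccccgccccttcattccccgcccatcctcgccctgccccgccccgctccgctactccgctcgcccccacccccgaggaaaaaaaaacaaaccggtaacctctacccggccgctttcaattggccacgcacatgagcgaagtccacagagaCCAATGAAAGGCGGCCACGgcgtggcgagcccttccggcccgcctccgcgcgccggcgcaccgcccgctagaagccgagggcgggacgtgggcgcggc
Creld2: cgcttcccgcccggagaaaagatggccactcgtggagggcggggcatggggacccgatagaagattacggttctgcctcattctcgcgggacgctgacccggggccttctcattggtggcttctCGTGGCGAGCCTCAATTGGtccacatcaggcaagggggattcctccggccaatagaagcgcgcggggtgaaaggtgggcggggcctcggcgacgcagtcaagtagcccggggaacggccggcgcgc

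The 4 genes were lower in mid-insulin β cells, by the values given above for Hspa5 and Pdia6. Calr stood at 866 CPM in WT and 1032 CPM in GKO against 1319 and 1541 CPM in high-insulin β cells (log2 ratio −0.61 and −0.58). Creld2 stood at 132 and 178 CPM against 211 and 306 CPM (−0.67 and −0.78). The letters did not sort the list by size of the ratio, since the median was −0.56 in WT and −0.56 in GKO over the 8 genes with a match and −0.54 and −0.48 over the 6 measured genes without one. A match is only a run of letters, and binding was not measured.

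Genes of ER translocation and signal peptide cleavage were lower as well. All 13 lay below 0 in both libraries and 5 below −0.5 in both, with medians of −0.41 in WT and −0.40 in GKO, and of −0.35 and −0.31 in marker-poor cells. Spcs1, a subunit of the signal peptidase, stood at 401 CPM in WT and 447 CPM in GKO against 649 and 784 CPM in high-insulin β cells (−0.70 and −0.81). Its catalytic partner Sec11c stood at 511 and 613 CPM against 813 and 1013 CPM (−0.67 and −0.72). Ssr4, a subunit of the translocon-associated complex, stood at 1361 and 1462 CPM against 2106 and 2294 CPM (−0.63 and −0.65). With CPM over all UMIs the list medians turn to 0.16 and 0.12, below the shift of all genes on that scale.

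Prohormone processing genes had 2 of 6 members past −0.5 in both libraries. All 6 lay below 0 in both, as did 61 of 71 nuclear respiratory chain genes. Pcsk1, the convertase that makes the first cut in proinsulin, stood at 328 CPM in WT and 382 CPM in GKO against 573 and 597 CPM (−0.81 and −0.64). Cpe, the carboxypeptidase that trims the cut ends, stood at 1880 and 1920 CPM against 2971 and 2892 CPM (−0.66 and −0.59), and both ratios were nearly the same in marker-poor cells (−0.63 and −0.58). Pcsk2, the other convertase, stood at 3295 and 3148 CPM against 4406 and 4240 CPM (−0.42 and −0.43).

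Granule and exocytosis genes had 2 of 11 and 2 of 7 members past −0.5 in both libraries and none past 0.5. Granule genes were mixed in sign, with 4 above 0 and 6 below 0 in both libraries, while 6 of the 7 exocytosis genes lay below 0 in both. The granule medians of −0.18 and −0.08 were −0.02 and 0.08 in marker-poor cells. Iapp, which encodes the peptide amylin that is stored with insulin, stood at 90954 CPM in WT and 94012 CPM in GKO against 119501 and 117007 CPM (−0.39 and −0.32). Chga, a granule matrix protein common to endocrine cells, stood at 14389 and 15557 CPM against 14657 and 15270 CPM (−0.03 and 0.03). Npy gave −1.08 and −1.20, or −0.75 and −0.72 in marker-poor cells, but 37.1% of its mid-insulin UMIs in WT and 54.3% in GKO were in 1 cell. The granulophilin gene Sytl4 was past the limit (−0.89 and −0.65), as were Ptprn (−0.56 and −0.57) and the vesicle GTPase gene Rab3a (−0.53 and −0.60), of which Ptprn and Rab3a in WT turned to 0.01 and 0.04 with CPM over all UMIs. Of 7 regulators of the unfolded protein response, only Edem1, which marks misfolded proteins for degradation, was past −0.5 in both (−0.69 and −0.89), and the list medians were −0.19 and −0.10.

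The β cell markers that were not used in the rule were lower in the mid-insulin range. G6pc2 stood at 923 CPM in WT and 708 CPM in GKO against 1787 and 1225 CPM in high-insulin β cells (−0.95, −0.98 to −0.92, and −0.79, −0.85 to −0.73). Slc2a2 stood at 511 and 540 CPM against 890 and 876 CPM (−0.80 and −0.70). Ucn3 stood at 289 and 283 CPM against 518 and 545 CPM (−0.85 and −0.95). In marker-poor cells the ratios were −0.68 and −0.67 for G6pc2, −0.53 and −0.48 for Slc2a2 and −0.54 and −0.78 for Ucn3, so each was still lower without the cells that carried other transcripts.

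Identity transcription factors did not follow the markers. Of 12 measured, 8 lay above 0 and 2 below 0 in both libraries, and only Mlxipl was past 0.5. The list medians were 0.05 and 0.13, and 0.23 in marker-poor cells of both libraries. Pdx1 stood at 129 CPM in WT and 193 CPM in GKO against 151 and 207 CPM (−0.23 and −0.10). Its direction turned in marker-poor cells, at 0.09 and 0.13. Nkx6-1 gave −0.42 and −0.40, or −0.09 and −0.21 in marker-poor cells, and Nkx2-2 gave 0.01 and 0.00. Pax6 gave 0.08 and 0.14 and Neurod1 −0.01 and 0.02. Of 9 genes of glucose sensing, 2 were higher and 2, G6pc2 and Slc2a2, lower by 0.5 or more in both libraries. Txnip (ENSMUSG00000038393), a glucose-responsive inhibitor of thioredoxin, stood at 554 and 714 CPM against 225 and 311 CPM (1.30 and 1.20). Mlxipl, which encodes the glucose-sensing factor ChREBP that drives Txnip, stood at 246 and 285 CPM against 173 and 188 CPM (0.51 and 0.60). Both ratios were at least as large in marker-poor cells, at 1.32 and 1.36 for Txnip and 0.74 and 0.77 for Mlxipl. After thinning each cell to 2000 non-insulin UMIs, Txnip was found in 47.7% of WT and 57.9% of GKO mid-insulin β cells, and in 30.1% and 38.5% of high-insulin β cells (83.6%, 88.2%, 76.8% and 82.8% before thinning). Endothelial cells express Txnip themselves, with 92.8% and 92.5% after thinning, and cannot serve as its background.

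The genes lowest in the mid-insulin range included a respiratory chain subunit and a channel. Cox6a2 (ENSMUSG00000030785), the muscle-type form of a cytochrome c oxidase subunit, stood at 138 CPM in WT and 172 CPM in GKO against 420 and 459 CPM in high-insulin β cells (−1.61, −1.68 to −1.53, and −1.41, −1.52 to −1.30). It had a UMI in 47.4% of WT and 47.0% of GKO mid-insulin β cells and in 82.8% and 86.4% of high-insulin β cells, or 16.9%, 22.7%, 46.2% and 49.0% after thinning, with 0.342% and 0.907% in endothelial cells. Cox6a2 stood apart from the 71 nuclear respiratory chain genes measured, whose medians were −0.14 and −0.15. Trpm5, a cation channel opened by calcium, stood at 113 and 111 CPM against 248 and 233 CPM (−1.13 and −1.07). Adam32, a member of a membrane metalloprotease family, had the lowest ratios of those named (−1.73 and −1.62). The others were Car10 (−1.26 and −1.19), Prss53 (−1.18 and −1.16), Cbs (−1.17 and −1.07), Zc3h3 (−1.12 and −1.20), Vps8 (−1.06 and −1.04) and Hapln4 (−1.06 and −0.98). In marker-poor cells the ratios of these genes lay between −1.91 and −0.90.

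The highest genes of the mid-insulin range included several that are known from immature β cells or other endocrine cells. Cd81 (ENSMUSG00000037706), a tetraspanin described as a marker of immature β cells, stood at 390 CPM in WT and 362 CPM in GKO against 130 and 109 CPM in high-insulin β cells (1.58, 1.51 to 1.65, and 1.73, 1.60 to 1.86). It was found after thinning in 49.0% and 46.4% of mid-insulin and in 20.9% and 15.7% of high-insulin β cells (86.9%, 84.1%, 46.3% and 40.3% before thinning). In marker-poor cells its ratios were 1.51 and 1.89, so they were about as large without the cells that carried other transcripts, although endothelial cells also express Cd81 (94.7% and 98.2% after thinning). Tspan8, another tetraspanin, stood at 185 and 172 CPM against 50.4 and 39.4 CPM (1.88 and 2.12), and App, the amyloid precursor protein gene, at 127 and 120 CPM against 46.9 and 44.3 CPM (1.44 and 1.44). In marker-poor cells they gave 1.25 and 1.84 for Tspan8 and 1.05 and 1.03 for App, and somatostatin-rich cells (Sst at 10% of UMIs or more, insulin under 5%) held 471 and 536 CPM of Tspan8 and 350 and 332 CPM of App. B2m, the light chain of MHC class I, stood at 90.9 and 94.8 CPM against 25.7 and 25.3 CPM (1.82 and 1.91), and its ratios were 0.61 and 0.67 in marker-poor cells.

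Neurog3 and Ldha, from the list of immature or disallowed genes, were scarce in both ranges. Neurog3, the factor of endocrine progenitors, stood at 8.58 and 12.3 CPM against 0.681 and 0.795 CPM. Ldha, which β cells normally keep silent, stood at 11.7 and 11.9 CPM against 1.87 and 1.91 CPM, and endothelial cells held 322 and 320 CPM of it.

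Metallothioneins, which bind zinc and other metals, were higher in the mid-insulin range of both libraries. Mt1 (ENSMUSG00000031765) stood at 963 CPM in WT and 372 CPM in GKO against 519 and 214 CPM in high-insulin β cells (0.89 and 0.80). Mt2 (ENSMUSG00000031762) stood at 163 and 62.1 CPM against 78.0 and 28.4 CPM (1.06 and 1.13), with a mean under 50 CPM in GKO, so it is not among the genes counted. In marker-poor cells the ratios were 1.29 and 1.09 for Mt1 and 1.55 and 1.60 for Mt2. Gpx3, a secreted glutathione peroxidase, stood at 468 and 477 CPM against 200.4 and 192 CPM (1.22 and 1.31). The other antioxidant genes measured, such as Prdx1 (0.10 and 0.15) and Prdx2 (0.02 and −0.03), were not past 0.5 in both libraries.

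Immediate early genes, which are induced within minutes by stimulation and by tissue dissociation, were all higher in the mid-insulin range. All 10 measured were past 0.5 in both libraries, with medians of 1.72 in WT and 1.84 in GKO. Jun stood at 584 CPM in WT and 536 CPM in GKO against 174 and 114 CPM (1.75 and 2.23), Fos at 439 and 359 CPM against 168 and 122 CPM (1.39 and 1.55), and Egr1 at 289 and 229 CPM against 89.2 and 61.3 CPM (1.70 and 1.90). Atf3 stood at 90.04 and 97.5 CPM against 14.3 and 15.1 CPM (2.66 and 2.69). These genes moved with the transcripts of other cells. In marker-poor cells the medians were 0.24 in WT and 0.69 in GKO, Fos gave 0.55 and 0.58, and Atf3 gave −0.11 and 0.37.

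Heat shock chaperones lay above 0 in all 11 cases, with 5 past 0.5 in both libraries. Hspa1a, the inducible Hsp70, stood at 653 CPM in WT and 668 CPM in GKO against 240 and 181 CPM (1.44 and 1.89). Hspb1, the small heat shock protein, stood at 313 and 194 CPM against 54.9 and 39.4 CPM (2.51 and 2.30). In marker-poor cells the list medians were 0.13 and 0.14, with 0.49 and 0.92 for Hspa1a and 0.48 and 0.66 for Hspb1. Of 4 apoptosis and p53 genes, Cdkn1a and Mcl1 were past 0.5 in both. Cdkn1a, the p53 target that blocks the cell cycle, stood at 94.6 and 71.3 CPM against 54.1 and 39.3 CPM (0.81 and 0.86), and its ratios were 0.83 and 1.08 in marker-poor cells. Mcl1, an inhibitor of apoptosis, gave 0.19 and 0.15 there, under the limit.

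Cell cycle transcripts were found in more of the mid-insulin β cells. Mki67, a marker of proliferating cells, had a UMI in 58 of 758 WT cells (7.65%) and 23 of 321 GKO cells (7.17%), against 2.44% and 2.46% of high-insulin β cells. The WT and GKO cells with an Mki67 UMI were deep, with medians of 43105 and 36878 UMIs. After thinning to 2000 non-insulin UMIs the shares were 3.83% (2.58 to 5.46) in WT and 2.80% (1.29 to 5.26) in GKO, against 0.947% and 0.895% in high-insulin β cells and 0.856% and 0.227% in endothelial cells. Cells of 1 library are not replicates, so these shares are a description. Top2a, the topoisomerase of dividing cells, gave 3.30% and 2.49% after thinning against 1.26% and 0.671% (7.12%, 4.67%, 2.84% and 1.79% before). The 15 genes of the list summed to 342 CPM in WT and 280 CPM in GKO, against 146 and 105 CPM. By insulin share the sum was 315 and 193 CPM at 55 to 60%, 262 and 178 CPM at 60 to 65%, and 75.8 and 48.8 CPM at 65 to 70%, so the bins beside the 60% limit were close. In marker-poor mid-insulin β cells Mki67 was present after thinning in 5.30% of WT (3.39 to 7.85) and 2.84% of GKO cells (1.05 to 6.09).

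Other lists held few genes past the limit. None of the 80 ribosomal protein genes and none of the 12 mitochondrially encoded genes measured was past 0.5 in both libraries, with medians of 0.08 and 0.06 and of −0.02 and −0.01. These medians were 0.02 and 0.03 for ribosomal and 0.22 and 0.19 for mitochondrially encoded genes in marker-poor cells. Of the receptors measured, such as Gipr, the receptor of the incretin GIP (0.01 and −0.07), and Ffar1, a fatty acid receptor (−0.25 and −0.29), 0 of 5 was past the limit, with medians of −0.24 and −0.29, or 0.01 and −0.15 in marker-poor cells. Of 5 ion channels Trpm5 alone was past it, and the KATP channel subunit gene Abcc8 gave −0.19 and 0.09. The channel medians were −0.09 and 0.09, or 0.20 and 0.21 in marker-poor cells. Of 3 measured genes of antigen presentation, B2m alone was past 0.5, and the medians of 0.41 and 0.29 turned to −0.11 and −0.07 in marker-poor cells.

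Within the range the GKO library was set against the WT library, which compares these libraries and not the genotypes. GKO mid-insulin β cells had lower metallothionein, Fkbp5 and Rgs2 transcripts and higher Pde10a, Ckb and Pdx1 transcripts, while 0 of 16 ER folding genes were past 0.5 with the main limits. Among 3187 genes with a mean of at least 50 CPM, 30 (0.941%) were higher by at least 0.5 on the log2 scale in GKO and 58 (1.82%) lower. The median log2 ratio of GKO to WT was 0.03, and 59.1% of genes lay above 0. In marker-poor cells 21 of the 30 and 36 of the 58 were still past 0.5, whether or not they reached 50 CPM there. With CPM over all UMIs only 1456 genes reached a mean of 50 CPM, and of these 11 were higher and 38 lower. These counts are thus out of fewer genes than the 3187 above. Insulin, by which the cells were chosen, made up 51.3% of summed UMIs in WT and 51.5% in GKO.

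**Figure D5:**
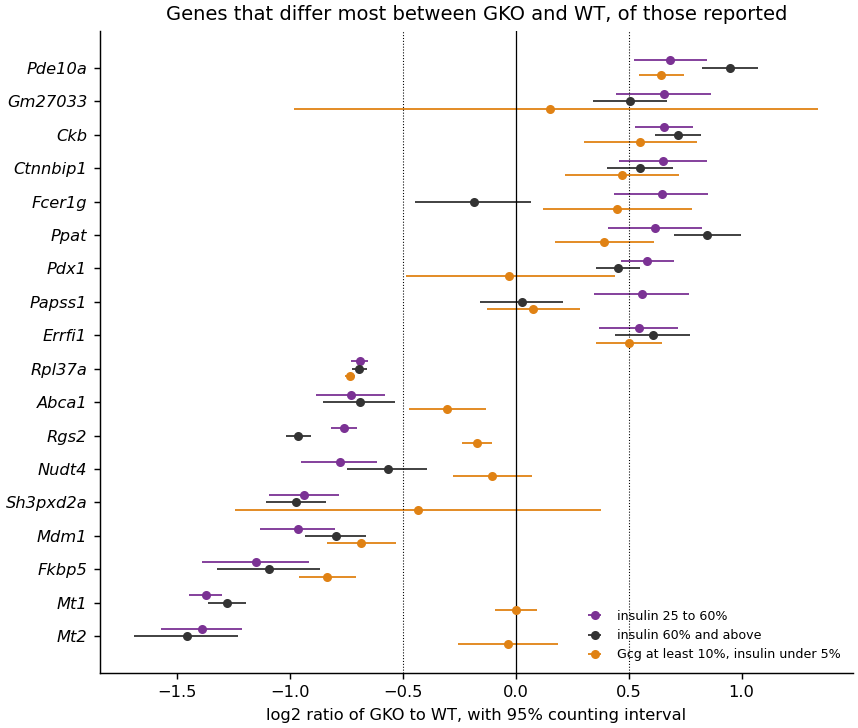
Log2 ratio of GKO to WT CPM (horizontal axis, points with 95% counting intervals) for 18 genes (vertical axis) in mid-insulin β cells, high-insulin β cells and glucagon-rich cells. Mt1 and Mt2 lie below −1 in both β cell ranges and near 0 in glucagon-rich cells, while Fkbp5 lies below −0.5 in all 3 sets.

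Both metallothionein genes were lower in GKO β cells. Mt1 stood at 963 CPM in WT and 372 CPM in GKO (log2 ratio −1.37, −1.44 to −1.30) and Mt2 at 163 and 62.1 CPM (−1.39, −1.57 to −1.21). The ratios in marker-poor cells were −1.46 and −1.37, and those in high-insulin β cells −1.28 and −1.46. In glucagon-rich cells Mt1 stood at 138 CPM in both libraries (0.00, −0.09 to 0.09) and Mt2 gave −0.04, so the lower level was seen in both β cell ranges and not there. Mt1 was found in 93.1% of WT and 78.2% of GKO mid-insulin β cells, or in 63.4% and 39.3% after thinning, against 5.48% and 3.17% in endothelial cells.

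The other genes lower in GKO were of several kinds. Fkbp5 (ENSMUSG00000024222), a co-chaperone of the glucocorticoid receptor that glucocorticoids induce, stood at 80.2 CPM in WT and 36.2 CPM in GKO (log2 ratio −1.15, −1.39 to −0.92), with −1.09 in high-insulin β cells and −0.83 in glucagon-rich cells. Rgs2, a regulator of G protein signalling, stood at 1029 and 607 CPM (−0.76, −0.82 to −0.70) and gave −0.96 in high-insulin β cells and −0.17 in glucagon-rich cells. Abca1, the cholesterol exporter, stood at 152 and 91.5 CPM (−0.73), and gave −0.69 and −0.30 in the other sets. Sh3pxd2a, a scaffold protein of cell protrusions, stood at 162 and 84.7 CPM (−0.93), and the microtubule-binding protein gene Mdm1 at 144 and 74.0 CPM (−0.96). Nudt4 stood at 126 and 73.2 CPM (−0.78).

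Some ribosomal protein genes were lower in GKO. Of 80 measured, 10 were past −0.5 and 62 lay below 0, with a median of −0.11, or −0.04 in marker-poor cells, −0.08 in high-insulin β cells, −0.17 in glucagon-rich cells and −0.04 in somatostatin-rich cells. Rpl37a stood at 2176 CPM in WT and 1348 CPM in GKO (−0.69), and gave −0.69 in high-insulin β cells and −0.73 in glucagon-rich cells. mt-Nd3 gave −0.62, −0.57 and −0.61 in the 3 sets.

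Of the genes higher in GKO, the phosphodiesterase gene Pde10a (ENSMUSG00000023868) stood at 66.2 CPM in WT and 106 CPM in GKO (log2 ratio 0.68, 0.52 to 0.84), with 0.95 in high-insulin β cells and 0.64 in glucagon-rich cells. Ckb, the brain-type creatine kinase, stood at 104 and 164 CPM (0.66, 0.53 to 0.78), with 0.72 and 0.55. Ctnnbip1, an inhibitor of β-catenin, stood at 46.5 and 73.2 CPM (0.65), with 0.55 and 0.47. All of these were also past 0.5 in marker-poor cells, at 0.73, 0.60 and 0.74. Gm27033 (0.66) and Papss1, which makes the sulfate donor of the cell (0.56), were as high in marker-poor cells at 0.67 and 0.57. In high-insulin β cells Gm27033 gave 0.51 and Papss1 0.03 (−0.16 to 0.21), and in glucagon-rich cells 0.15 and 0.08. In contrast, Fcer1g, an Fc receptor chain of myeloid cells (0.65), Ppat of purine synthesis (0.62) and Errfi1, an inhibitor of the EGF receptor (0.54), gave 0.28, 0.29 and 0.21 in marker-poor cells. In high-insulin β cells Fcer1g gave −0.19, Ppat 0.85 and Errfi1 0.61, and in glucagon-rich cells 0.45, 0.39 and 0.50.

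Of 13 measured identity transcription factors, 10 lay above 0 in GKO and 2 were past 0.5. Pdx1 (ENSMUSG00000029644), the factor that maintains insulin expression in adult β cells, stood at 129 CPM in WT and 193 CPM in GKO (log2 ratio 0.58, 0.46 to 0.70). It gave 0.45 in high-insulin β cells, 0.46 in marker-poor cells and −0.03 in glucagon-rich cells, and had a UMI after thinning in 23.0% of WT and 32.1% of GKO mid-insulin β cells. Nkx2-2 stood at 78.3 and 111 CPM (0.50, 0.35 to 0.66), with 0.51 in high-insulin β cells and 0.46 in marker-poor cells, so neither was past 0.5 in the latter. The median of the list was 0.11, or 0.06 in marker-poor cells. Among the β cell markers G6pc2 was lower in GKO (−0.38, −0.44 to −0.33, and −0.55 in both marker-poor and high-insulin β cells), while the interval of Ucn3 held 0 (−0.12 to 0.06). Slc2a2 was slightly higher (0.08, 0.01 to 0.15), with 0.01 in marker-poor and −0.02 in high-insulin β cells.

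ER folding genes all lay above 0 in GKO mid-insulin β cells, 16 of 16 with a median of 0.27, against 59.1% of all genes. None reached 0.5. The nearest was Sdf2l1, at 327 CPM in WT and 462 CPM in GKO (log2 ratio 0.497, 0.42 to 0.57), followed by Creld2 at 132 and 178 CPM (0.43, 0.31 to 0.55). Hspa5 stood at 1457 and 1714 CPM (0.23, 0.20 to 0.27). The medians were 0.20 in marker-poor and 0.27 in high-insulin β cells, and 0.01 in glucagon-rich and −0.14 in somatostatin-rich cells. The list median was thus above 0 in both β cell ranges, and the difference between the ranges given above was present in both libraries. ER translocation genes lay above 0 in 12 of 13 cases with a median of 0.16, the exception being Sec61g (−0.36), which gave −0.56 in glucagon-rich cells. Regulators of the unfolded protein response did not move together, with 3 of 8 above 0, a median of −0.07, and Ern1, the sensor IRE1, past −0.5 at 70.9 and 49.6 CPM (−0.52).

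The remaining lists held few genes past the limit. Granule genes lay above 0 in 10 of 10 cases but none was past 0.5 (median 0.12), and the same held for 8 of 9 glucose-sensing genes (0.15), led by Txnip at 0.37 (0.31 to 0.43), or 0.50 in marker-poor cells. Of 11 immediate early genes, Klf2 was past 0.5 (0.83) and Ier2 past −0.5 (−0.67). Klf2 gave −0.02 without the cells in which a non-endocrine list reached 1% and 1.45 in marker-poor cells, and 27.9% of its GKO UMIs were in 1 cell. Ier2 gave −0.65 without those cells and 0.45 in marker-poor cells. Hspb1 (−0.68) was past the limit among 11 heat shock genes and gave −0.08 in marker-poor cells. Of 72 nuclear respiratory chain genes only Atp5k was past it (−0.53). Prohormone processing (0 of 6, median 0.03), exocytosis (0 of 7), ion channels (0 of 6), receptors (0 of 5), apoptosis genes (0 of 5), antigen presentation genes (0 of 4) and the immature or disallowed genes (0 of 2) held none, and the antioxidant list held only Mt1 and Mt2 of 13. Of the cell cycle list only Top2a was abundant enough to be counted, at 57.4 and 44.2 CPM (−0.38). Top2a was past −0.5 in marker-poor cells (−0.90) and in high-insulin β cells (−1.05).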

How the data were processed

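The authors made 1 library of each genotype with 3′ single-cell chemistry. Cell Ranger 5.0.1 assigned reads to barcodes and genes and counted the UMIs, after down-sampling of reads where samples needed it. The deposited counts are unscaled UMIs of the barcodes called as cells, for 27998 genes, on mm10 per the submitters' processing notes. They precede the removal of ambient RNA, so free RNA is still in them.

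Cells were chosen as given in the opening. Insulin UMIs were left out, counts were summed per library and set, and CPM were taken over the remaining UMIs. No test was made, since each genotype had a single library. A log2 ratio past 0.5 among genes with a mean of at least 50 CPM was counted, and ratios have exact 95% Poisson intervals. Where shares of cells with a UMI were thinned, each cell was reduced to 2000 non-insulin UMIs, which left out 1 WT mid-insulin cell and 0 GKO ones. No doublet caller was run. Cells with transcripts of other types were counted by marker lists instead, and the cells had been gated as single and alive.

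The members, gene lists and limits were chosen with earlier results of these data known, and the limits of the marker-poor set were chosen after seeing the data. Genes named are the markers, hormones and Ghrl, the 10 with the largest difference each way in each comparison without markers of other types or genes with over 10% of their UMIs in 1 cell, and up to 4 of the highest from each list with those past 0.5. Some genes that this rule takes are not reported here. Neurog3, Ldha and the hormone levels in other sets were given for context.

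The tools were pandas 2.3.3, scipy 1.17.1 and numpy 2.4.6 under Python 3.11.15, matplotlib 3.10.9 for figures, and R 4.3.3 with edgeR 4.0.16 for TMM factors. Sums, ratios and intervals were tested on simulated data. Alternatives changed the limits on genes, mitochondrial UMIs, insulin and other hormones, the total and scaling, the weight of cells and the CPM and fold limits.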

Additional observations from a re-analysis of the deposited data

How the results depend on the processing

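Counts limited scarce genes such as Neurog3 and most of the cell cycle list. With 1 library per genotype, intervals cover counting only, and no spread between mice is known. No paired analysis was possible because each genotype had 1 library, and its replicate number only names it. The share of kept cells in the range, 10.7% in WT and 5.06% in GKO, was 9.59% in WT with at most 5% mitochondrial UMIs. It was 6.24% and 2.90% with insulin at 30 to 55%, 8.06% and 3.96% with other hormones under 2%, 7.03% and 3.73% with them under 0.5%, 6.13% and 3.32% in marker-poor cells, and 37.4% and 41.8% of cells with at least 25% insulin.

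Counts of genes moved most with the scale and the limits. With CPM over all UMIs fewer genes reached 50 CPM. For the genotypes these were 1456 against 3187, and for the 2 insulin ranges 1152 against 3057. For GKO against WT (30 higher, 58 lower), 18 were higher without mixed barcodes, 16 were higher in marker-poor cells (among genes at 50 CPM or more there), 11 were higher and 38 lower with CPM over all UMIs, 67 and 124 at 20 CPM, 12 higher at 100 CPM, and 6 and 10 at a log2 limit of 1. For the mid-insulin against the high-insulin range (85 higher, 116 lower), 182 were lower with insulin at 30 to 55%, 72 in marker-poor cells and 196 with TMM factors. CPM over all UMIs gave 437 higher and 4 lower, 20 CPM gave 211 higher, 100 CPM gave 35 and 77, and a limit of 1 gave 42 and 10. Matching of insulin shares between libraries was run for the genotypes only. It left 27 genes higher and 56 lower.

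Of 178 named ratios past 0.5, 126 were still past it in marker-poor cells, 125 with CPM over all UMIs, 150 with other hormones under 0.5%, 163 with them under 2%, 166 with TMM factors and 168 without mixed barcodes. Directions turned for few. Of mid-insulin against high-insulin cells, marker-poor cells gave −0.36 in WT and −0.25 in GKO for Gcg, −0.36 and −0.17 for Sst, −0.25 and −0.13 for Ppy, and −0.11 in WT for Atf3. With hormones under 0.5% these were −0.40 and −0.27 for Gcg, −0.38 and −0.19 for Sst and −0.26 and −0.19 for Ppy, and Gcg in GKO was −0.29 with them under 2%, as these limits remove the hormone itself. CPM over all UMIs gave 0.013 for Ptprn, 0.043 for Rab3a, 0.073 for Srp9 and 0.064 for Dnajc3 in WT, and 0.0013 for Srp9 in GKO. Of GKO against WT, Klf2 was −0.024 without mixed barcodes and Ier2 0.45 in marker-poor cells, and the cause was not tested.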
